A study of Homo sapiens with 4 samples.

Results

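AP1AR-DT is a long non-coding RNA of chromosome 4 that starts beside the protein-coding gene AP1AR and runs away from it on the other strand. The data described here are the counts of AP1AR-DT and of its listed neighbours AP1AR, TIFA, ALPK1, NEUROG2, LARP7 and ANK2. They were found by symbol in the table of gene counts, where AP1AR-DT stands under RP11-73K9.2. Of the 7 listed genes, 6 had a row among the 24014 genes of the table, and NEUROG2 was not analysed here.

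SK-N-SH, an established human neuroblastoma cell line, was profiled by RNA-seq to ask which genes change when AP1AR-DT is raised. The control group (2 libraries) is labelled wild type and received a lentivirus with no insert. The AP1AR-DT_OE group (2 libraries) received a lentivirus carrying AP1AR-DT, so cells of both groups had been exposed to lentivirus. For AP1AR-DT_OE 2 the title and the other labels give the RNA's clone name with different version suffixes, and grouping went by title. The study's methods state that the full-length cDNA was cloned from blood RNA into an expression vector with a puromycin marker. The labels do not say whether the libraries came from separate cultures or transductions, so the p-values measure only the spread between these samples, which may be technical.

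Divergent pairs, in which 2 genes start close together on opposite strands, are common at promoters rich in CG dinucleotides, and many long non-coding RNAs begin at such promoters. Some act on genes near their own locus, and others act elsewhere or have no known function. An RNA expressed from a lentiviral vector is transcribed from the sites where the vector has integrated, and not from its own promoter. Whether the copy on chromosome 4 responded was not tested.

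Apart from ALPK1 and TIFA, which act together, the neighbours have unrelated roles. AP1AR encodes gadkin, which binds the AP-1 clathrin adaptor, kinesin-1 and the actin-nucleating Arp2/3 complex on endosomes. ALPK1 is a kinase that senses a bacterial sugar and phosphorylates TIFA, an adaptor that then assembles with TRAF6 to activate NF-kappaB. NEUROG2 is a proneural transcription factor. LARP7 binds the 3′ end of the 7SK RNA, whose ribonucleoprotein holds the elongation kinase P-TEFb in reserve. ANK2 encodes ankyrin-B, which ties membrane proteins to the spectrin skeleton.

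By the deposited coordinates (GRCh38), AP1AR-DT spans chr4:112229561-112231596 on the minus strand and AP1AR spans chr4:112231740-112273110 on the plus strand, with 143 bases between their starts. The sequence between them is shown because AP1AR-DT and AP1AR point away from it. It is the plus strand of chr4:112231537-112231739 (RefSeq, GRCh38.p14), and the capitals mark the 60 bases where AP1AR-DT begins, read on the opposite strand.

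AP1AR-DT and AP1AR: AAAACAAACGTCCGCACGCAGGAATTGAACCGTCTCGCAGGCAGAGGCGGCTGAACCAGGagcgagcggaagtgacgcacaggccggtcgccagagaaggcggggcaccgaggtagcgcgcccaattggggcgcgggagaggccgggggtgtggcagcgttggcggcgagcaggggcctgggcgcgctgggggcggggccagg

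The 143 bases had a GC content of 76.9% and held 18 CpG dinucleotides. RefSeq sets the start of AP1AR-DT 554 bases further along, inside the body of AP1AR, so in that annotation both genes overlap at their starts. LARP7 has a like partner, ZGRF1 (listed as C4orf21), which starts 111 bases away on the minus strand. The 111 bases between ZGRF1 and LARP7, chr4:112636996-112637106 on the plus strand, had a GC content of 66.7% and 10 CpG dinucleotides, and are shown for comparison.

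ZGRF1 and LARP7: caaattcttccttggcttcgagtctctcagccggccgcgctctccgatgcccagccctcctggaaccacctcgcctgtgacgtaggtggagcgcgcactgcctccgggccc

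The annotated AP1AR-DT transcript (GENCODE release 44) is 2036 bases long. The ends of the cloned RNA and the sites of the study's qPCR primers on it are shown because they say which part of the transcript the vector carried. In the lines for the ends, capitals mark the part that a cloning primer matched. In the lines for the qPCR primers, capitals mark the site of the primer on the RNA.

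5′ end, bases 1 to 60: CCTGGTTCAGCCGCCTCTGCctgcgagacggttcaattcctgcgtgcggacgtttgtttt
forward qPCR primer site, bases 26 to 45: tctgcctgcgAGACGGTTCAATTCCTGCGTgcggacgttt
reverse qPCR primer site, bases 231 to 250: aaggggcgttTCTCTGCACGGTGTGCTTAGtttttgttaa
3′ end, matched at bases 2003 to 2036: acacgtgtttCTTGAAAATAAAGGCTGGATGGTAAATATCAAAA

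The cloning primers therefore reached from the first to the last annotated base, and the qPCR product covered 225 bases near the 5′ end. Reads from the vector and reads from the copy on chromosome 4 have the same sequence, so the counts of AP1AR-DT cannot be divided between them. The GC content of the RNA was 35.9% in all and fell along its length, from 48.5% in the first 509 bases through 37.7% and 30.1% to 27.3% in the last 509.

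**Figure D1:**
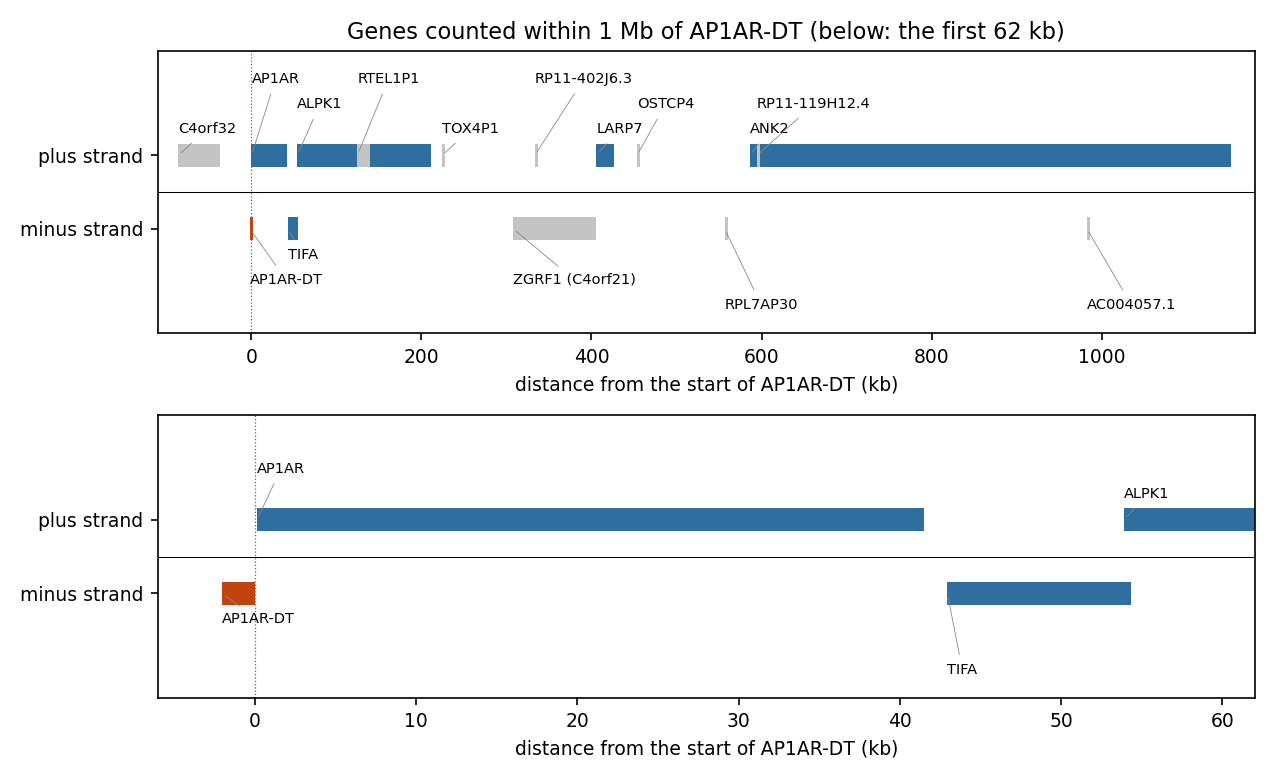
Genes of the count table within 1 Mb of AP1AR-DT by distance (kb) from its start, plus strand above and minus strand below (AP1AR-DT in orange, the other listed genes in blue, other genes and pseudogenes in grey), with the first 62 kb enlarged in the lower panel. AP1AR-DT and AP1AR point away from each other across 143 bases, TIFA and ALPK1 overlap at their starts, and RP11-73K9.3, for which no strand was known, is not drawn.

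AP1AR-DT was higher in both AP1AR-DT_OE libraries than in either control. Its deposited counts were 3 in control 1, 18 in control 2, 680 in AP1AR-DT_OE 1 and 1065 in AP1AR-DT_OE 2. About 4 counts stood for 1 read pair in this table, so control 1 lay under the floor of 3 read pairs (12 counts), below which a count is not told from 0. After division by library size factors, controls averaged 8.65 ± 7.40 normalized read counts and AP1AR-DT_OE libraries 901 ± 220.0 (SD, n = 2). The Log2FC was 6.63 (SE = 0.64, DESeq2 Wald test, adjusted p = 3.64e-21), with a 95% interval from 5.38 to 7.89, or 41.7-fold to 237-fold. The mean of the controls lay below their normalized floors (13.7 and 9.26), so the size of the fold rests on counts near the floor. With counts divided by 4 the SE was 0.85.

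This is the check of the overexpression, and the groups stood apart. The libraries of number 1 (control 1 and AP1AR-DT_OE 1) differed by at least 54.6-fold, counted against the floor, and those of number 2 by 76.1-fold. AP1AR-DT was 1 of 6 listed genes called at an adjusted p under 0.05, where 0.137% of all 24014 genes were called, 0.0833% as higher and 0.0541% as lower. The call was lost in the edgeR quasi-likelihood test, which gave a Log2FC of 6.60 and an adjusted p of 0.39. That test called 0 genes of the table, with 112 at an unadjusted p under 0.05. Blocked on the replicate number, the same edgeR test called AP1AR-DT (Log2FC = 6.70, adjusted p = 1.85e-06) among 44 genes. Leaving out 1 library moved the fold by over 1.5 times, to a Log2FC of 8.05 without control 2, where it rests on the 3 counts of control 1, and 6.02 without control 1.

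Levels of different genes were compared per kilobase (kb) of the longest transcript. AP1AR-DT averaged 4.25 ± 3.64 normalized counts per kb over the controls and 443 ± 108 over the AP1AR-DT_OE libraries (SD, n = 2). Among 23954 genes with a known length, this was the 25.2 percentile in control and the 84.3 percentile in AP1AR-DT_OE. The 5 counted neighbours lay between 8.94 (ANK2) and 40.7 (TIFA) in control and between 7.53 (ANK2) and 26.2 (TIFA) in AP1AR-DT_OE, all from the 32.4 to the 53.8 percentile. AP1AR-DT was thus the lowest of the 6 per kb in control and the highest in AP1AR-DT_OE. As a share of the counts of the 6 genes, it took 0.699% in control 1, 1.27% in control 2, 63.6% in AP1AR-DT_OE 1 and 57.7% in AP1AR-DT_OE 2.

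In control, the order of the neighbours per kb was TIFA, ALPK1 (32.2 ± 8.91), AP1AR (27.9 ± 20.4), LARP7 (19.3 ± 17.7) and ANK2 (8.94 ± 1.90; SD, n = 2). Each difference between adjacent genes in this order was smaller than the larger of their SDs. In AP1AR-DT_OE, TIFA (26.2 ± 14.5), AP1AR (24.0 ± 10.9) and ALPK1 (23.7 ± 12.3) lay within each other's spread, followed by LARP7 (18.4 ± 4.22). ANK2 (7.53 ± 0.913) lay below LARP7 by more than either SD. Lengths were those of the longest transcript, so a gene that makes a shorter one, as ANK2 with its 15298 bases may, is understated on this scale.

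**Figure D2:**
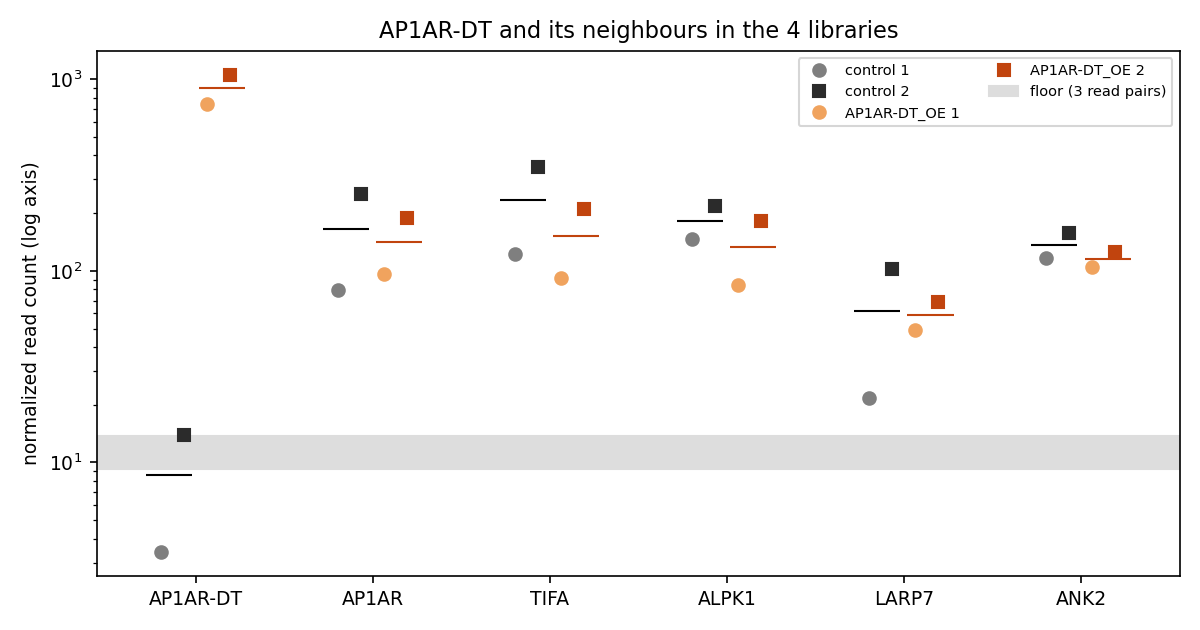
Normalized read count (log axis) of AP1AR-DT and its 5 counted neighbours in the 4 libraries, each point 1 library, circles number 1 and squares number 2, bars the group means, the grey band the floor of 3 read pairs over the libraries. AP1AR-DT separates the groups, at 3.42 and 13.9 against 746 and 1057, while the groups overlap for all 5 neighbours.

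AP1AR, on the other side of the shared start region, did not pass the test. Its normalized counts were 79.7 in control 1, 250.7 in control 2, 96.5 in AP1AR-DT_OE 1 and 187.6 in AP1AR-DT_OE 2. Both AP1AR-DT_OE libraries lay between the controls, and within each group the library of number 2 was higher. The Log2FC was -0.22 (SE = 0.69, DESeq2, adjusted p = 1), and the 95% interval from 0.335-fold to 2.20-fold leaves room for a change in either direction. The direction was not the same in the numbers, the log2 ratio being 0.28 for number 1 but -0.42 for number 2.

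The next genes along the chromosome, TIFA and ALPK1, form another pair on opposite strands. TIFA (chr4:112274537-112285904, minus strand) starts 54308 bases from the start of AP1AR-DT and ALPK1 (chr4:112285509-112442621, plus strand) 53913 bases from it, and 396 bases of their bodies overlap. The sources do not state whether counting used strand, so reads in those 396 bases cannot be assigned with certainty to 1 of the genes.

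TIFA, the adaptor, had 122 normalized counts in control 1, 349 in control 2, 92.1 in AP1AR-DT_OE 1 and 210.4 in AP1AR-DT_OE 2. In each number the AP1AR-DT_OE library was the lower, with log2 ratios of -0.40 and -0.73, but AP1AR-DT_OE 2 lay above control 1 and the groups overlapped. The Log2FC was -0.64 (SE = 0.67, DESeq2, adjusted p = 1), with an interval from 0.257-fold to 1.60-fold. Without control 2 the Log2FC was 0.32.

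ALPK1, the kinase upstream of TIFA, had 146 normalized counts in control 1, 217 in control 2, 84.5 in AP1AR-DT_OE 1 and 183 in AP1AR-DT_OE 2. It was also the lower in AP1AR-DT_OE within each number, with log2 ratios of -0.79 and -0.25, and its groups also overlapped. The Log2FC was -0.44 (SE = 0.63, DESeq2, adjusted p = 1), with an interval from 0.315-fold to 1.72-fold. Without AP1AR-DT_OE 1 the Log2FC was 0.0043. Neither gene of the pair differed by more than the spread between libraries.

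LARP7 (chr4:112637107-112657592, plus strand) starts 405511 bases from AP1AR-DT and was the lowest in counts. It had 21.6 normalized counts in control 1, 101.8 in control 2, 49.4 in AP1AR-DT_OE 1 and 68.5 in AP1AR-DT_OE 2. The controls enclosed both AP1AR-DT_OE libraries and differed from each other more than any other pair of libraries for this gene. The Log2FC was -0.07 (SE = 0.87, DESeq2, adjusted p = 1), with the widest interval of the neighbours, from 0.291-fold to 3.10-fold. The log2 ratio was 1.19 for number 1 but -0.57 for number 2. The fitted direction turned with the replicate number as a block (Log2FC = 0.27) and with a correction for GC content (Log2FC = 0.26).

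ANK2 (chr4:112818032-113384221, plus strand), the farthest listed gene at 586436 bases, varied least. It had 116 normalized counts in control 1, 157 in control 2, 105.3 in AP1AR-DT_OE 1 and 125 in AP1AR-DT_OE 2. The groups overlapped by the value of AP1AR-DT_OE 2 alone, which exceeded control 1. The Log2FC was -0.25 (SE = 0.60, DESeq2, adjusted p = 1), with an interval from 0.371-fold to 1.91-fold and log2 ratios of -0.14 and -0.33.

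Of the 5 neighbours, 0 were called by DESeq2 and 0 had an unadjusted p under 0.05, against 0.137% and 0.816% of all 24014 genes. Beside such shares a count of 0 among 5 genes says little. The edgeR test also called 0 of the neighbours, but without the block it called 0 genes of the table. Over all alternatives that kept the 4 libraries, the lowest unadjusted p of any neighbour was 0.0766 in these model fits (DESeq2 or edgeR, TIFA). In 0 of the 5 did the groups stand apart without a correction for GC content. The groups did so in 9.45% of the 13298 genes averaging at least 50 normalized counts. All 5 Log2FC values were below 0, though that of LARP7 was above 0 in 4 and that of AP1AR in 1 of the 9 alternatives that kept the 4 libraries. Their median was -0.25 against -0.02 over those 13298 genes, of which 54.9% were below 0. In bulk RNA, fewer cells that express a gene and less RNA per cell cannot be told apart.

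**Figure D3:**
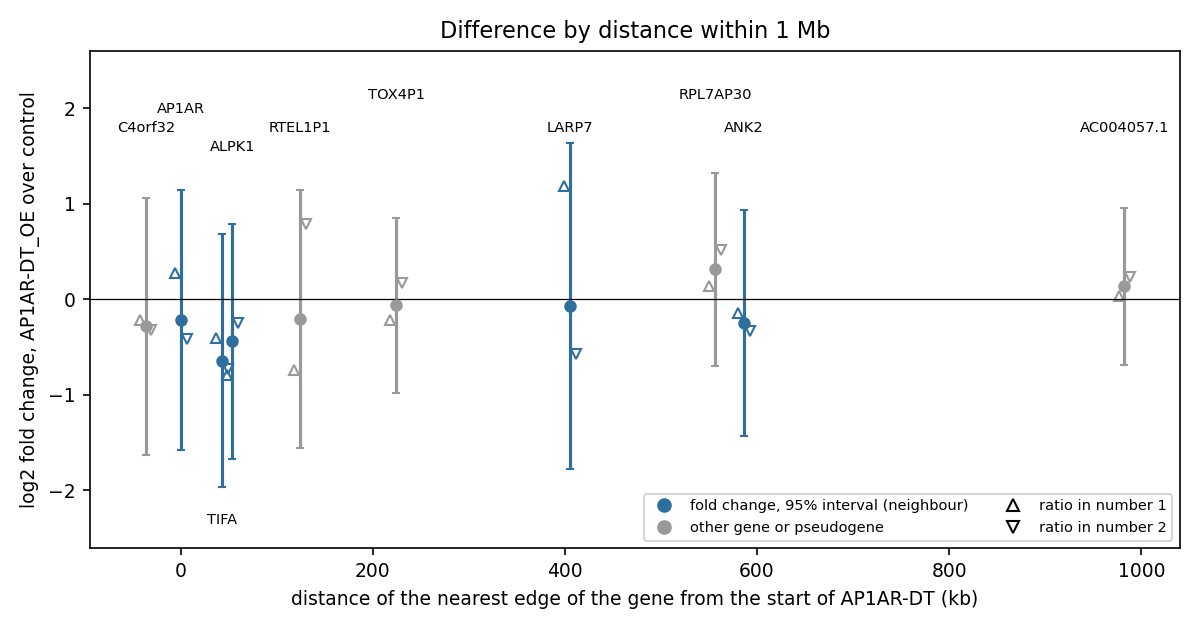
Log2FC of AP1AR-DT_OE over control (filled points, bars the 95% interval) for the genes within 1 Mb averaging at least 50 normalized counts, by the distance (kb) of their nearest edge from the start of AP1AR-DT, listed neighbours in blue and other genes and pseudogenes in grey. Triangles give the log2 ratio within number 1 (up) and number 2 (down), and the interval of each of the 10 genes includes 0.

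The other rows near AP1AR-DT were mostly pseudogenes, whose counts are uncertain because they share sequence with their parent genes. Within 1 Mb the table held 15 genes beside AP1AR-DT, and 0 of them were called by DESeq2 or had an unadjusted p under 0.05. Over all 24014 genes these shares were 0.137% and 0.816%. The 3 with the highest means were AC004057.1, TOX4P1 and RPL7AP30. AC004057.1, a pseudogene within ANK2 on the other strand, had deposited counts of 11631 and 15079 in control and 12413 and 13818 in AP1AR-DT_OE against 96 to 204 for ANK2, and a Log2FC of 0.14. TOX4P1 had a Log2FC of -0.06 and RPL7AP30 a Log2FC of 0.31. In AC004057.1 and RPL7AP30 both AP1AR-DT_OE libraries were above both controls in normalized counts. These were 2 of 10 genes with a mean of at least 50, where 5.11% of the 13298 genes stood apart in that direction. With the GC trend taken out, the groups overlapped for AC004057.1 and stayed apart for RPL7AP30.

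The remaining genes that overlap a listed one were low or went another way. RTEL1P1, within ALPK1 on the same strand, had deposited counts of 188 and 86 in control and 117 and 115 in AP1AR-DT_OE, so that between the controls it was higher in number 1 where ALPK1 was higher in number 2. RP11-119H12.4, within ANK2, had counts from 4 to 21, and RP11-73K9.3, at the end of AP1AR, had 2 counts in control 2 and 0 elsewhere. On the side of AP1AR-DT away from AP1AR, C4orf32 (FAM241A) had deposited counts of 64 and 143 in control and 57 and 89 in AP1AR-DT_OE, a Log2FC of -0.28.

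Within 500 kb, 7 of 7 genes with a mean of at least 50 had a Log2FC below 0, with a median of -0.22. Within 1 Mb it was 8 of 10, with a median of -0.21. Over all 13298 genes with such a mean, 54.9% were below 0. Within 500 kb the count depended on the libraries, being 3 of 7 without control 2 and 4 of 7 without AP1AR-DT_OE 1. It was 5 of 7 without control 1 and 6 of 7 without AP1AR-DT_OE 2. With the GC correction it was 6 of 7, with a median of -0.11. With the replicate number as a block it was 5 of 7, with a median of -0.08, where 46.0% of all such genes were below 0.

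GC content moved with these values. The listed genes had a transcript GC content between 35.9% (AP1AR-DT) and 46.1% (ANK2), and all but ANK2 lay in the lowest tertile of 13284 genes, under 44.5%. In that tertile, 70.8% of 4428 genes had a Log2FC below 0 and the median was -0.12, against 45.3% and 0.02 in the highest. With the GC trend of each library taken out, the log2 ratios in number 1 and number 2 were 0.13 and -0.12 for AP1AR, -0.53 and -0.46 for TIFA, -0.89 and -0.07 for ALPK1, 1.05 and -0.29 for LARP7, and -0.22 and -0.23 for ANK2. For AP1AR-DT the ratio in number 2 was 6.60, and none is given for number 1, where control 1 lay under the floor.

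The controls differed from each other by more than the fitted difference between the groups for all 5 neighbours. The log2 ratio of control 2 over control 1 was 1.65 for AP1AR, 1.52 for TIFA, 0.57 for ALPK1, 2.23 for LARP7 and 0.44 for ANK2. The log2 ratio of AP1AR-DT_OE 2 over AP1AR-DT_OE 1 was 0.96, 1.19, 1.11, 0.47 and 0.25 in the same order. Number 2 was thus the higher in both groups for 5 of 5 neighbours, as it was for 41.4% of the 13284 genes and for 85.4% of those in the lowest tertile of GC content. Summed over the 5 neighbours, the normalized counts were 485 in control 1, 1076 in control 2, 428 in AP1AR-DT_OE 1 and 774 in AP1AR-DT_OE 2. With the GC trend taken out the sums were 641, 779, 529 and 661, so that the libraries lay closer together. In these sums the groups still overlapped, as they did for AP1AR and LARP7. For TIFA, ALPK1 and ANK2 both AP1AR-DT_OE libraries then lay below both controls. TIFA had 176 and 236 in control against 122 and 172 in AP1AR-DT_OE, and ANK2 132 and 140 against 113 and 120. ALPK1 had 184 and 171 in control against 98.9 and 164 in AP1AR-DT_OE. The share of all genes so placed after the correction was not counted, and no neighbour was called with it.

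**Figure D4:**
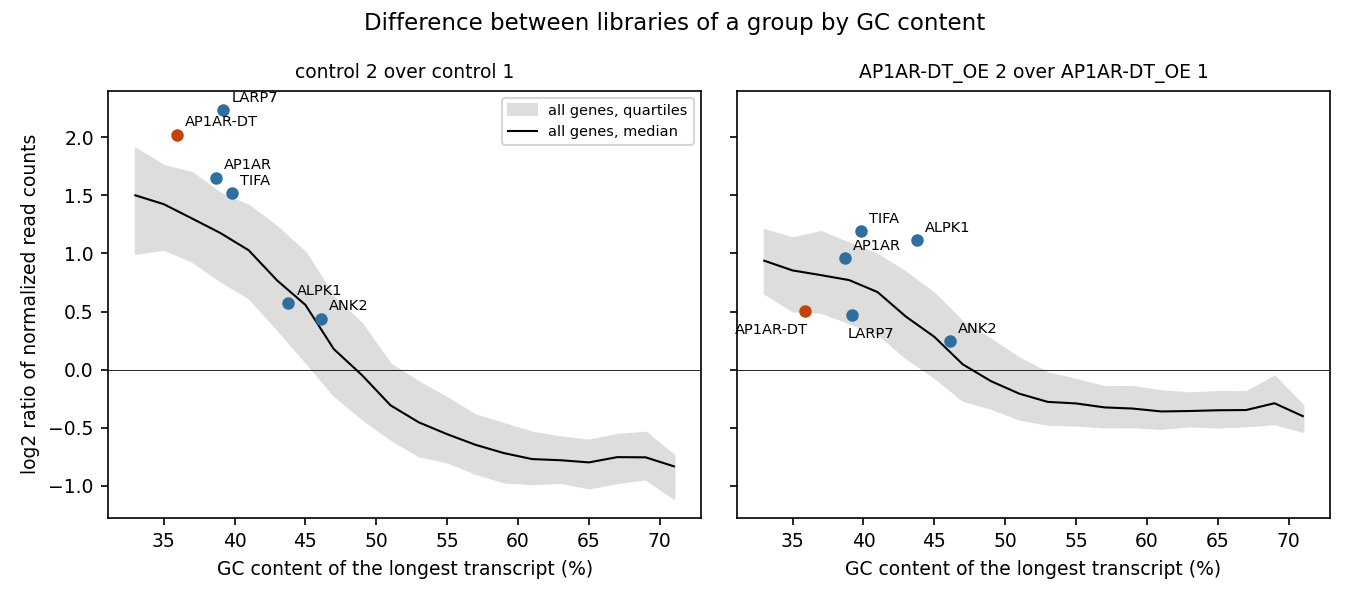
Log2 ratio of the 2 libraries of a group (left control, right AP1AR-DT_OE) against the GC content of the longest transcript, with the median and quartiles of all genes in bins of GC content and the listed genes as points. All 6 listed genes lie above 0 in both panels, on the side of low GC content where the median of all genes is also above 0. The left point of AP1AR-DT rests on 3 deposited counts in control 1, under the floor.

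For the genes of a divergent pair, the ratio of their counts per kb was taken within each library. AP1AR-DT over AP1AR was 0.125 in control 1 and 0.161 in control 2, against 22.4 in AP1AR-DT_OE 1 and 16.4 in AP1AR-DT_OE 2. In AP1AR-DT_OE, vector and chromosome 4 reads of AP1AR-DT cannot be told apart. The ratio there includes the overexpressed RNA and does not show the balance of the pair at its locus. TIFA over ALPK1 was 0.814 and 1.57 in control and 1.06 and 1.12 in AP1AR-DT_OE, so both AP1AR-DT_OE libraries lay between the controls. ZGRF1 over LARP7 was 0.330 and 0.0876 in control and 0.0643 and 0.0978 in AP1AR-DT_OE, and it rested on 6 to 24 deposited counts of ZGRF1, partly under the floor. In control the non-coding partner AP1AR-DT was thus below AP1AR per kb, with the reservation that control 1 held 3 counts.

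**Figure D5:**
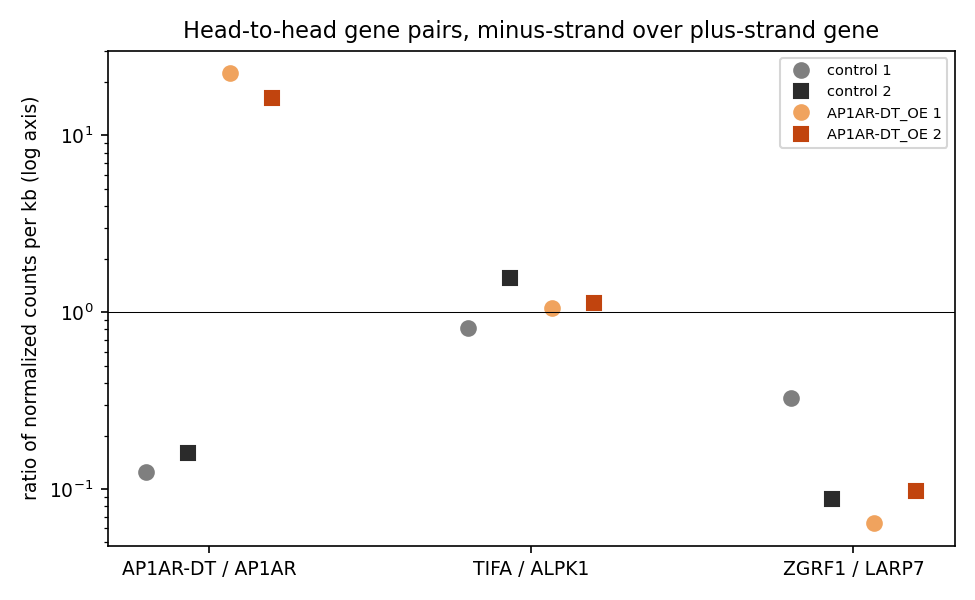
Ratio (log axis) of normalized counts per kb, minus-strand gene over plus-strand gene, in the 4 libraries for 3 gene pairs that start side by side. The ratio of AP1AR-DT to AP1AR is 0.125 and 0.161 in control and 22.4 and 16.4 in AP1AR-DT_OE, where it includes the overexpressed RNA. The ratios of TIFA to ALPK1 and ZGRF1 to LARP7 overlap between the groups.

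For the roles of the neighbours' proteins 5 gene lists were read, not all of whose genes are direct partners. In these lists, 0 genes were called by DESeq2 or had an unadjusted p under 0.05. Over all genes, 0.137% were called and 0.816% had an unadjusted p under 0.05. Of the 18 genes listed for ALPK1 and TIFA signalling to NF-kappaB, 16 had a row and 14 a mean of at least 50. Of these 14, 5 had a Log2FC above 0 and 9 below, with a median of -0.04. RELA, the NF-kappaB subunit with the highest mean, had a Log2FC of -0.04 (SE = 0.49), and BIRC2, a ubiquitin ligase and the gene with the largest absolute value, had -0.56 (SE = 0.62). Both AP1AR-DT_OE libraries were below both controls for 2 of the 14 genes, TRAF6 and NFKB1, where 4.35% of the 13298 genes stood apart in that direction, and above both for 0. With the GC trend taken out, the groups overlapped for both genes. TRAF6, the ligase that TIFA recruits, had 199 and 181 normalized counts in control and 167 and 164 in AP1AR-DT_OE, a Log2FC of -0.20 (SE = 0.55). With the GC trend taken out, TRAF6 had 276 and 128 in control and 213 and 137 in AP1AR-DT_OE, and its log2 ratio was -0.37 for number 1 but 0.10 for number 2. In each of the other 4 lists, 1 gene stood apart and higher, namely SSU72, ARPC5L, ADD2 and ID1, where 5.11% of the 13298 genes did so. With the GC trend taken out, the groups overlapped for SSU72, ARPC5L and ID1 and stayed apart for ADD2. TRAF6, NFKB1, SSU72, ARPC5L and ADD2 were chosen for naming after their values were seen.

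All 12 genes listed for 7SK and P-TEFb, not all of them parts of these complexes, had a row. Of 11 with a mean of at least 50, 5 were above 0 and 6 below, with a median of -0.10. MEPCE, which caps 7SK, had the highest mean and a Log2FC of 0.20 (SE = 0.52). RN7SK itself had the largest value, 0.60 (SE = 0.82), from 25 and 74 deposited counts in control and 40 and 87 in AP1AR-DT_OE, and its many copies in the genome make these counts uncertain. For the partners of AP1AR, all 20 had a row, and of 19 with a mean of at least 50, 12 were above 0 and 7 below, with a median of 0.03. AP1S1, a small subunit of the AP-1 adaptor, had a Log2FC of 0.02 (SE = 0.43), and AP1S3, a sister subunit, had -0.41 (SE = 0.85).

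Of the 16 genes listed for ankyrin and spectrin, 15 had a row, and of 13 with a mean of at least 50, 5 were above 0 and 8 below, with a median of -0.07. ADD1 and ADD3, adducins that cap actin at the spectrin skeleton, had Log2FC values of 0.03 (SE = 0.46) and -0.24 (SE = 0.58). Of the 20 genes listed as proneural factors and their targets, 13 had a row and 8 a mean of at least 50, 3 above 0 and 5 below, with a median of -0.04. ID1, an inhibitor of proneural factors, had the highest mean and a Log2FC of 0.09 (SE = 0.42). HES6, which acts in neurogenesis downstream of proneural factors, had 649 and 478 normalized counts in control and 678 and 156 in AP1AR-DT_OE, a Log2FC of -0.44 (SE = 0.64) in which AP1AR-DT_OE 2 alone was low.

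The genes most like AP1AR-DT, AP1AR and TIFA over the 4 libraries were ranked by the Euclidean distance between centred profiles of log2(normalized count + 1), over 13298 genes. For AP1AR-DT these were LIN37 (2.94), PCNP (2.97) and ENSG00000270299 (3.08), all at a long distance. The bodies of all 3 overlap other genes of the table. Deposited control counts were 4 and 2 for LIN37 and 7 and 3 for ENSG00000270299, under the floor of 12, as was control 1 of AP1AR-DT. These distances thus rest partly on counts not told from 0. LIN37 and ENSG00000270299 reached a mean of at least 50 only through the AP1AR-DT_OE libraries, where they were high. For AP1AR they were UBXN2A (0.036), the pseudogene CCT8P1 (0.040) and C12orf29 (0.044), on chromosomes 2, 1 and 12. For TIFA they were RP1-136J15.5 (0.071), RAD17P1 (0.091) and SSX2IP (0.132), on chromosomes X, 7 and 1. Among 13297 genes ordered by distance to AP1AR, TIFA ranked 1862, LARP7 2481, ALPK1 3873, ANK2 4483 and AP1AR-DT 13248. The GC content of the genes nearest to AP1AR (41.1%, 41.3% and 38.7%) was close to its own 38.7%.

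The libraries held between 21988065 and 26184599 counts. Of 8 markers of adrenergic (neuroblast-like) neuroblastoma cells, 7 were above the floor in at least 1 library and TH had no row, and their summed normalized counts ranged from 20688 to 25418 in control and from 22990.2 to 24372 in AP1AR-DT_OE. All 6 markers of mesenchymal (substrate-adherent) cells were above the floor, with sums from 109534 to 139686 in control and from 117715 to 135987 in AP1AR-DT_OE. Of 8 markers of blood, epithelial, endothelial and liver cells, 7 had no row and EPCAM had 0 to 14 counts. The larger part of the mesenchymal sums came from VIM, with 67917 to 93086 normalized counts. Among the mesenchymal markers, PRRX1 had 2432 and 14724 deposited counts in control and 1131 and 2263 in AP1AR-DT_OE. In normalized counts both AP1AR-DT_OE libraries (1241 and 2246) lay below both controls (2770 and 11358), where 4.35% of the 13298 genes stood apart in that direction. For the other mesenchymal markers the groups overlapped. The part of PRRX1 in the values of control 2 was not tested.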

How the data were processed

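RNA from SK-N-SH cells was sequenced in 2 control and 2 AP1AR-DT_OE libraries. The deposited values are whole-number counts per gene with no normalization. Per the study's methods, the authors aligned paired reads to hg19 with HISAT2, ran StringTie and took counts with its Python script, whereas the submitters' processing notes list TopHat2 2.0.4, HTSeq, Cuffdiff and edgeR 2.6.12. The annotation used and the use of strand are not given in the sources used here. The deposited gene coordinates are GRCh38 positions. The table also holds fold changes and p-values from the authors' DESeq2 and edgeR comparisons, which were not used. Low counts piled up at 4 (3287 entries, against 2136 at 3 and 1509 at 5), so 1 read pair was taken as about 4 counts and the floor as 3 pairs, or 12 counts. Floors cover counting error only.

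Samples were grouped by title. The listed genes, the gene lists and the alternatives were chosen with earlier results of these data known. DESeq2 1.42.0 (R 4.3.3) was fitted to all 24014 genes with median-of-ratios size factors (0.878 to 1.296), no covariate, a two-sided Wald test and Benjamini-Hochberg adjustment over the table, with calls at an adjusted p under 0.05. Intervals are 95% Wald intervals. The DESeq2 and edgeR procedures were run on simulated counts with known changes. The simulation held no GC trend and no shared deviation of same-numbered libraries, so it does not show how the tests perform with such effects. GC content and length came from the longest GENCODE release 44 transcript, matched by gene ID for 23954 genes.

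Genes were named by rule: the listed genes, genes overlapping them, any called gene and the 3 highest means within 1 Mb, in each list any called gene, the highest mean and the largest absolute Log2FC at a mean of at least 50, and the 3 profiles nearest to AP1AR-DT, AP1AR and TIFA. ZGRF1, C4orf32, PRRX1, TRAF6, NFKB1, SSU72, ARPC5L and ADD2 were added after their values were seen. Alternatives were TMM factors, the edgeR 4.0.16 quasi-likelihood test with and without the replicate number as a block, a filter (10 counts or more in at least 2 libraries), DESeq2 without independent filtering or with the block, removal of a lowess GC trend (span 0.3, statsmodels 0.14.6) with and without the block, counts divided by 4, and leaving out each library. The count of genes within 500 kb below 0 and the list counts under these settings were added after seeing the data.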

Additional observations from a re-analysis of the deposited data

How the results depend on the processing

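AP1AR-DT was higher under all 9 alternatives that kept the 4 libraries, with a Log2FC from 6.60 to 6.94, and was called in all but the edgeR quasi-likelihood test without the block (6.60, adjusted p = 0.39). Leaving out a library gave 6.02 to 8.05. Of the 5 neighbours, 0 were called under any alternative, so their directions are read without a call. AP1AR was -0.22 as reported, 0.00093 with the GC correction and the replicate block, and -0.82 to 0.85 with a library left out. LARP7 was -0.07 as reported, 0.27 with the replicate block in DESeq2, 0.22 in edgeR with the block, 0.26 with the GC correction, 0.36 with both, and -0.79 to 1.46 with a library left out. TIFA ranged from -1.37 to 0.32, ALPK1 from -1.12 to 0.0043 and ANK2 from -0.45 to -0.0013 with a library left out, and all 3 stayed below 0 under the other 9 alternatives. The replicate block changed the call of AP1AR-DT in edgeR, from an adjusted p of 0.39 to one of 1.85e-06, and no call of a listed gene in DESeq2. NEUROG2 gave no value under any setting.

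The count of called genes was 33 as reported, 0 in edgeR without the block, where 112 had an unadjusted p under 0.05, 55 with the GC correction, 60 with the GC correction and the block, 15 with counts divided by 4, and 45 to 90 with a library left out, where the lone library of a group was assumed to vary like the others. It was 37 with the replicate block and 44 in edgeR with the block. Genes called within 1 Mb numbered 0 under every setting run, as did called genes of the 5 lists, and with the reported fit the number was also 0 within 500 kb and 5 Mb. Of the 7 genes within 500 kb, 3 to 6 were below 0 with a library left out. For the block, the GC correction and edgeR, the cause was not tested.

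The labels do not say that the replicate number marks a batch. Same-numbered libraries deviated together from their group means (r = 0.46 over 13284 genes), and with 2 pairs no pairing was assumed. At 2 libraries a group, the intervals of the neighbours span from 0.257-fold to 3.10-fold, and these data neither show nor exclude changes inside them. With counts divided by 4 the SE of AP1AR was 0.77 against 0.69, and that of AP1AR-DT was 0.85 against 0.64.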

Other observations

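The start regions of the listed genes differed in base composition. In windows from 250 bases before to 50 after the RefSeq start (GRCh38.p14), the GC content was 71.3% for AP1AR, 69.7% for AP1AR-DT, 66% for TIFA, 57.7% for LARP7, 56.3% for NEUROG2, 47.3% for ANK2 and 38.3% for ALPK1, with a median of 58.7% over 35116 windows. The RefSeq start of ALPK1 lies 11860 bases inside the deposited one, so its window is not the region it shares with TIFA. The letters GGGCGG (GC box), searched on both strands, were present in the windows of AP1AR-DT, AP1AR, TIFA and LARP7, and in 45% of all windows. CCAAT was present in those of AP1AR, TIFA, ALPK1 and LARP7, and in 34.6% of all windows, and the 2 matches of AP1AR overlap each other on opposite strands within the stretch shown above. TATAAA was in 0 of the 7 windows against 11.5% of all, and CACGTG in 0 against 7.26%. A match is a description of letters and not a binding site, and its absence says nothing of the factor.

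Farther out, the table held 51 genes within 5 Mb of AP1AR-DT beside it. DESeq2 called 0 of them, with 0 at an unadjusted p under 0.05, against 0.137% and 0.816% of all 24014 genes. Of 27 averaging at least 50 normalized counts, 22 had a Log2FC below 0, with a median of -0.20. Over all 13298 such genes 54.9% were below 0, with a median of -0.02. Within 5 Mb the count below 0 was 6 of 27 without control 2 and 11 of 27 without AP1AR-DT_OE 1. It was 19 of 27 without control 1 and 21 of 27 without AP1AR-DT_OE 2. With the GC correction alone it was 19 of 27. With the GC correction and the replicate block it was 17 of 27, with a median of -0.04. Both AP1AR-DT_OE libraries were above both controls for 4 of the 27 and below both for 0, where 5.11% and 4.35% of the 13298 genes stood apart in those directions.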
